A study of Homo sapiens with 8 samples.

Results

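The carnitine shuttle carries long-chain fatty acids into mitochondria, and 6 of its genes are described here: CPT1A, CPT1C, CPT2, SLC25A20, SLC22A5 and CRAT. They are a pathway selected on the average RU-486 difference of 2 of them, CPT1A and SLC25A20, which earlier results of the same arrays had shown to be higher with this antiprogestin; the other 4 were taken with them as genes of the same shuttle. Each of the 6 has exactly 1 probe set that the platform annotation pairs with its symbol alone, and together they are 6 of 18417 genes measured in this way. All values are log2 expression levels, so a difference of 1 unit is a doubling.

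The cells were U373, an established human astrocytoma line, grown in medium with hormone-free serum and then treated for 12 h. The 4 groups were vehicle, 10 nM progesterone (P4), 1 µM RU-486 (mifepristone, which blocks the progesterone and glucocorticoid receptors), and both steroids in combination. Each group had 2 arrays, 8 in all, hybridised with total RNA. The titles call the replicates biological but name no separate cultures, so the p-values here rest on a spread between samples that may be technical. The descriptions of the RU-486 samples carry another compound number, taken to be a slip for the same drug. Of 8 astrocyte and glioma markers, 6 lay above 6.22, the level under which 95% of 341 olfactory receptor genes fell; VIM, an intermediate filament gene, was at 13.37 and GFAP, the astrocyte filament gene, at 7.54. The water channel gene AQP4, at 4.19, and ALDH1L1, at 6.19, were not above it. Markers of other cells lay above it for 2 of 4 neuronal, 1 of 5 microglial and leukocyte, 1 of 3 oligodendrocyte, 1 of 4 endothelial and 2 of 4 epithelial genes. Among these, CD68 of microglia and leukocytes (10.57), KRT18 of epithelium (9.62) and CDH5 of endothelium (8.57) were higher than GFAP. The remaining markers of other cells were lower than GFAP.

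Long-chain fatty acids are activated to acyl-CoA outside the mitochondrial matrix, and the inner membrane does not let acyl-CoA pass. CPT1 enzymes on the outer membrane transfer the acyl group to carnitine, the carrier SLC25A20 exchanges the acylcarnitine for free carnitine across the inner membrane, and CPT2 on the matrix side turns it back into acyl-CoA for beta-oxidation. Malonyl-CoA, the building block of fatty acid synthesis, inhibits CPT1, which makes this step the main control point of the pathway, and in the brain astrocytes are the cells best known for oxidising fatty acids.

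The region around the start site is shown for the 2 genes of the shuttle that were higher on all RU-486 arrays. Each sequence is the RefSeq promoter window of build GRCh38.p14, from 250 bases before to 50 bases after the start, printed 5′ to 3′ on the gene's own strand, which is the minus strand for both. The CPT1A window is chr11:68844228-68844527 and the SLC25A20 window is chr3:48898833-48899132. Capitals mark any match to 8 short motifs searched on both strands.
CPT1A: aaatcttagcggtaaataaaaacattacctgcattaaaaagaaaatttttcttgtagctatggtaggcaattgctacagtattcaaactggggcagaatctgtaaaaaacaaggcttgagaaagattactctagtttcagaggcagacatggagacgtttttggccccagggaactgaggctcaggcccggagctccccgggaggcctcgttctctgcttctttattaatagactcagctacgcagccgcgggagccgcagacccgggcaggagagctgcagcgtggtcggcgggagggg
SLC25A20: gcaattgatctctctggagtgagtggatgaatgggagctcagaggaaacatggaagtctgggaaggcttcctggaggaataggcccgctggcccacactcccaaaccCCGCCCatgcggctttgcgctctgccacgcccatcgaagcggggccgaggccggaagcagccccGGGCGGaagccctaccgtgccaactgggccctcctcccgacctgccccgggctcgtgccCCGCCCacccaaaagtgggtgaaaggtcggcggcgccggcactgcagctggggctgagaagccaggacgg
The motifs were AGGTCA, the core that nuclear receptors of the PPAR kind bind; AGAACA, the core for glucocorticoid and progesterone receptors; TGATGNAA, the core of the composite ATF4 and C/EBP element; TGACG, the core for CREB and ATF factors; CACGTG, the E-box; GGGCGG, the GC box; CCAAT; and TATAAA. CPT1A held none of the 8, as did 13.3% of the 35116 RefSeq windows of the same length. SLC25A20 held 3 GC boxes, which 45% of all windows contain, and none of the other 7. AGGTCA was present in 13.8% of all windows, AGAACA in 14.8% and TGATGNAA in 3.62%. The 2 windows therefore shared no match to these letters, and a missing match speaks only of this window. They also differed in base composition, with 50% G and C in CPT1A and 67% in SLC25A20, around a median of 58.7% over all windows.

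CPT1A and SLC25A20, which act one after the other in the shuttle, were the members that stood apart with RU-486. CPT1A, the broadly expressed CPT1 enzyme that commits long-chain acyl groups to oxidation, had levels of 9.87 and 9.76 with vehicle and 9.89 and 9.54 with progesterone. With RU-486 it was at 10.71 and 10.70, and with the combination at 10.97 and 10.84. The 4 arrays with RU-486 therefore lay above the 4 without it, with a gap of 0.81 between the lowest of the first and the highest of the second. The average difference was 1.04 ± 0.09 log2 units (SE, 4 against 4 arrays), or 2.06-fold, and 2 of the other genes on the array had a larger one. It was 0.89 ± 0.13 for RU-486 against vehicle and 1.20 ± 0.13 for the combination against progesterone.

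SLC25A20, the carnitine-acylcarnitine carrier of the inner membrane, was at 8.10 and 8.05 with vehicle, 8.05 and 7.97 with progesterone, 8.67 and 8.59 with RU-486, and 8.78 and 8.78 with the combination. Again the arrays with and without RU-486 did not overlap, and the gap between them was 0.49. The average difference was 0.66 ± 0.06 (1.58-fold), and 14 genes had a larger one. It was 0.55 ± 0.08 for RU-486 against vehicle and 0.77 ± 0.08 for the combination against progesterone. CPT1A and SLC25A20 are 2 of the 6 genes called for the average RU-486 difference among 18417 (0.0326%, limma with Benjamini-Hochberg adjustment), and these values led to the choice of the pathway, so they are given as a description without a p-value.

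The size of the difference of these 2 genes depended little on single arrays. With each array left out in turn, the average RU-486 difference stayed between 0.95 and 1.13 for CPT1A and between 0.64 and 0.68 for SLC25A20. Calls over the whole array did change with the array left out. Whether these 2 genes were called also changed with the array left out, so their calls were less steady than their sizes. No p-value is given for them, since the pathway was selected on this comparison. The progesterone arrays were the least alike of the replicate pairs: 2176 genes differed between them by over 0.5 log2 units, against 127 to 450 in the other groups. The gap between the progesterone arrays was 0.35 for CPT1A, wider than that of 74.7% of all genes there, and 0.09 for SLC25A20.

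**Figure D1:**
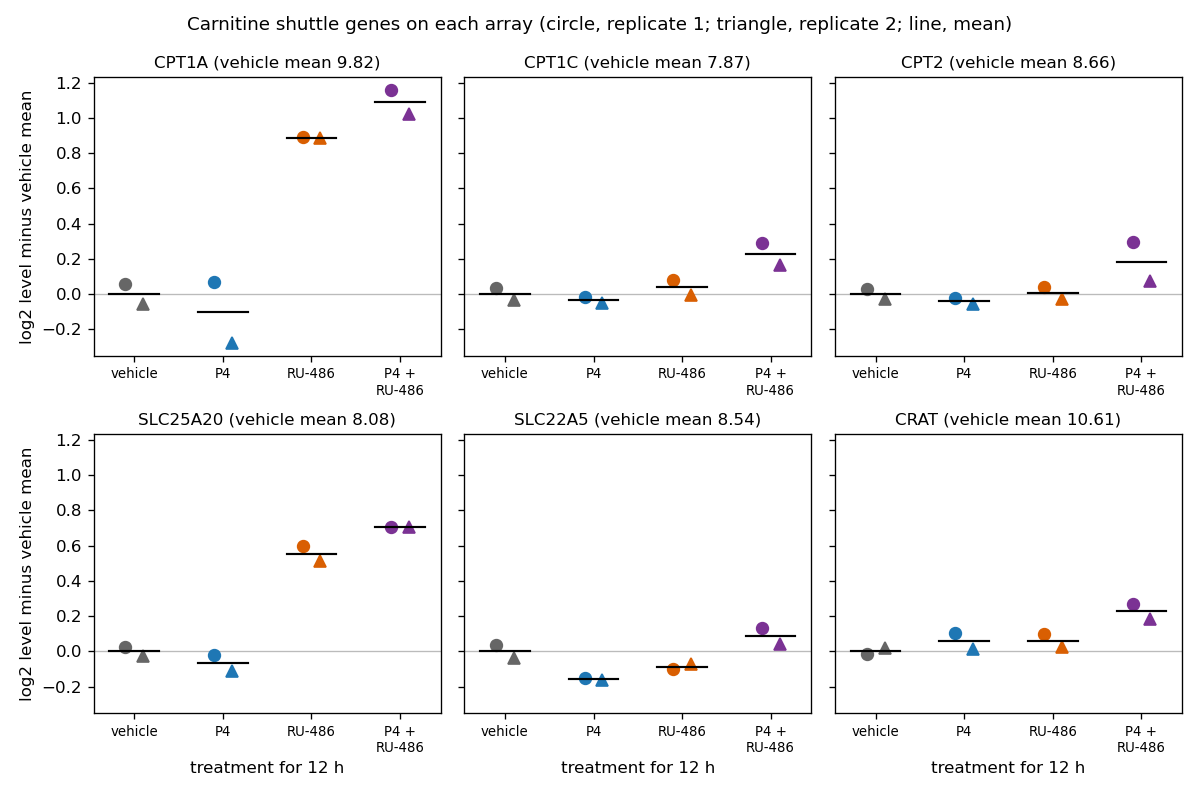
Log2 level of each of the 6 genes on each array, minus the gene's vehicle mean, by treatment (P4, progesterone); circles are replicate 1, triangles replicate 2 and lines the means of n = 2. CPT1A and SLC25A20 sit high on all 4 arrays with RU-486, while the other 4 genes depart by at most 0.29 units from their vehicle mean, CPT2 on combination replicate 1 the most.

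The other 4 members overlapped between arrays with and without RU-486. Compared within the same replicate number, CPT1C, CPT2 and CRAT were higher with RU-486 in all 4 pairs, like CPT1A and SLC25A20, and SLC22A5 in 2 of 4. That makes 5 of 6 members, beside 12.6% of all genes, as a description of the comparison on which the pathway was selected. The smallest of these pair differences, without progesterone, were 0.03 for CPT1C, 0.0027 for CPT2 and 0.0091 for CRAT. CPT1C, the isoform found mainly in neurons and their endoplasmic reticulum, with little acyltransferase activity, was at 7.90 and 7.83 with vehicle, 7.85 and 7.82 with progesterone, 7.95 and 7.86 with RU-486, and 8.16 and 8.03 with the combination. Only the combination arrays were above the rest. The average RU-486 difference was 0.15 ± 0.06, made up of 0.04 ± 0.08 without progesterone and 0.26 ± 0.08 with it.

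CPT2, the matrix-side enzyme that frees the acyl group from carnitine, was at 8.69 and 8.63 with vehicle, 8.64 and 8.61 with progesterone, 8.70 and 8.64 with RU-486, and 8.96 and 8.74 with the combination. Its RU-486 arrays lay at the vehicle level, and the difference between them was 0.01 ± 0.10, while the combination against progesterone gave 0.22 ± 0.10. The combination replicates themselves differed by 0.22, and without combination replicate 1 that second difference was 0.11, as against 0.34 without combination replicate 2. No step up of CPT2 comparable to that of CPT1A or SLC25A20 was therefore seen with RU-486 alone: the 95% interval of the difference ran from -0.22 to 0.23.

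CRAT, which exchanges short acyl groups such as acetyl between CoA and carnitine, was at 10.60 and 10.63 with vehicle, 10.72 and 10.62 with progesterone, 10.71 and 10.64 with RU-486, and 10.88 and 10.80 with the combination. The combination arrays were again the highest. The average RU-486 difference was 0.11 ± 0.06, with 0.06 ± 0.08 for RU-486 against vehicle and 0.17 ± 0.08 for the combination against progesterone.

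SLC22A5, the sodium-dependent transporter that brings carnitine into the cell, was at 8.57 and 8.50 with vehicle, 8.39 and 8.37 with progesterone, 8.43 and 8.46 with RU-486, and 8.67 and 8.58 with the combination. Both single steroids lay below vehicle on both arrays and the combination lay above each single steroid, while the lowest combination array and the highest vehicle array were only 0.0048 apart. The difference was -0.09 ± 0.08 for RU-486 against vehicle and 0.24 ± 0.08 for the combination against progesterone.

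The interaction term, which asks whether the RU-486 difference changes when progesterone is present, is independent of the average RU-486 difference that drew attention to the pathway, and was tested. It was largest for SLC22A5, at 0.33 ± 0.11 with an interval from 0.07 to 0.59 (limma adjusted p = 0.828), and did not pass. CPT1A had 0.31 ± 0.18, CPT1C 0.22 ± 0.12, CPT2 0.22 ± 0.13, SLC25A20 0.22 ± 0.11 and CRAT 0.11 ± 0.11, with limma adjusted p from 0.828 to 0.848. All 6 estimates were above 0, as were those of 52.4% of all genes, and none passed, where 0 of 18417 genes (0%) were called and 972 had an unadjusted p under 0.05. The 95% interval ran from -0.11 to 0.73 for CPT1A and from -0.05 to 0.48 for SLC25A20, so the data do not settle whether progesterone alters their RU-486 difference.

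Progesterone on its own was tested in the same way and none of the 6 genes passed. Against vehicle the differences were -0.10 ± 0.13 for CPT1A, -0.03 ± 0.08 for CPT1C, -0.04 ± 0.10 for CPT2, -0.07 ± 0.08 for SLC25A20, -0.15 ± 0.08 for SLC22A5 and 0.06 ± 0.08 for CRAT. The limma adjusted p ran from 0.741 for SLC22A5 to 0.951 for CPT1C, in a comparison with 0 genes called (0%) and 1129 at an unadjusted p under 0.05. CPT1A and SLC25A20 thus showed no detectable response to the hormone alone, with 95% intervals from -0.40 to 0.19 and from -0.25 to 0.12. RU-486 alone was not tested against progesterone alone. Without progesterone replicate 2 the CPT1A difference was 0.070, and without replicate 1 it was -0.28.

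With progesterone added to RU-486 the difference was above 0 for every member, and again none passed. The combination against RU-486 was 0.20 ± 0.13 for CPT1A, 0.19 ± 0.08 for CPT1C, 0.18 ± 0.10 for CPT2, 0.15 ± 0.08 for SLC25A20, 0.17 ± 0.08 for SLC22A5 and 0.17 ± 0.08 for CRAT, with a limma adjusted p of 0.769 for each; 0 genes were called (0%) and 874 had an unadjusted p under 0.05. Over all genes the median was 0.04, and 61.1% were above 0. Averaged over RU-486, the progesterone difference lay between 0.01 for SLC22A5 and 0.11 for CRAT (limma adjusted p from 0.722 to 0.948, 0 genes called, 926 at an unadjusted p under 0.05).

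**Figure D2:**
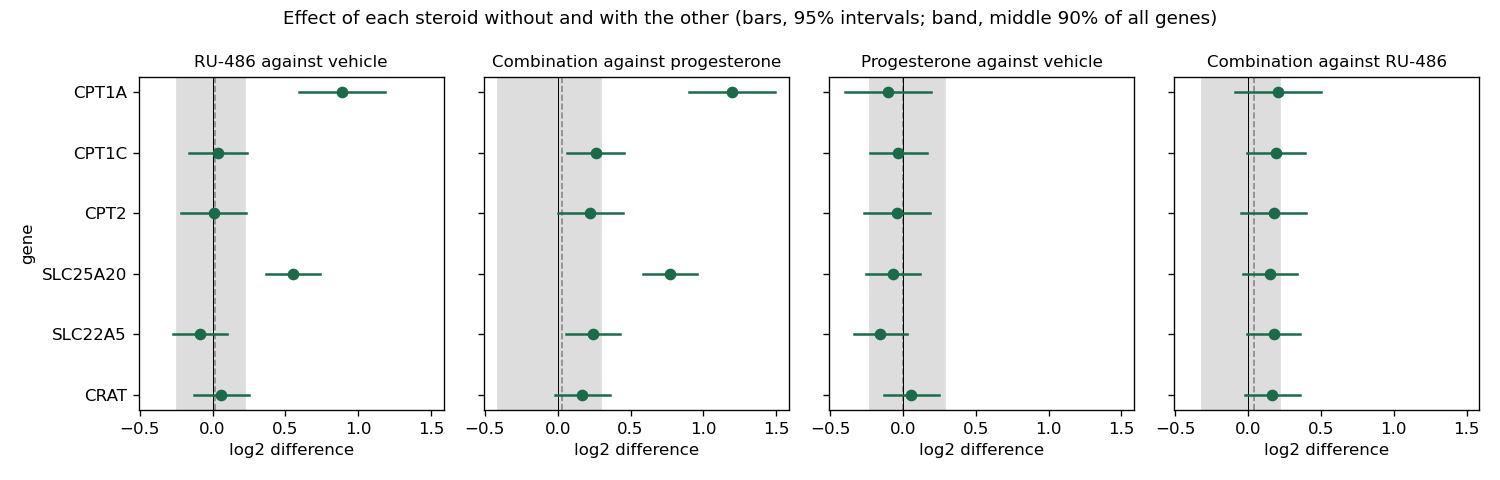
Log2 difference of each gene (points) with its 95% interval (bars) for each steroid without and with the other; the grey band holds the middle 90% of all 18417 genes and the dashed line is their median. CPT1A and SLC25A20 lie outside the band when RU-486 is added, and the points of all 6 genes lie within it when progesterone is added.

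Set against vehicle, the combination gave 1.09 ± 0.13 for CPT1A, 0.71 ± 0.08 for SLC25A20, 0.23 ± 0.08 for CPT1C, 0.23 ± 0.08 for CRAT, 0.18 ± 0.10 for CPT2 and 0.09 ± 0.08 for SLC22A5, beside a median of 0.07 over all genes. The SLC22A5 difference was thus close to that of the median gene. Without combination replicate 1 the CPT2 difference was 0.07 and that of SLC22A5 0.04, and without replicate 2 they were 0.29 and 0.13.

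The members fell into 2 patterns over the 8 arrays. All 4 arrays with RU-486 lay above all 4 without it for CPT1A and SLC25A20, 2 of the 6 members, and for 4.51% of all genes. Both combination arrays lay above the other 6 arrays for 6 of 6 members and for 15.2% of all genes. Both RU-486 arrays were above both vehicle arrays for 3 members, CPT1A, SLC25A20 and CRAT, and for 24% of all genes, and both combination arrays were above both progesterone arrays for 6 members and 28.1% of all genes. These counts come from the comparisons that the choice of the pathway had in view and are a description. Replicate 1 was higher than replicate 2 in 22 of the 24 pairs that the 6 genes form over the 4 groups, compared with 44.0% to 63.0% of all genes by group, and the part of this shared difference in the combination pattern was not tested.

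Over the 8 arrays the levels of CPT1A and SLC25A20 had a Pearson correlation of 0.99. CPT1C and CPT2, whose levels turned on the combination arrays, had 0.96, and the other pairs of members ran from 0.54 to 0.90. All points come from the same 8 RNA samples, and for CPT1A and SLC25A20 these fall into arrays with and without RU-486, so the coefficients only restate the patterns above. Likeness was ranked among 12908 genes outside the members with a mean above 6.22, with small RNA, long intergenic RNA and uncharacterised genes left out. Those most like CPT1A were EIF4EBP1, an inhibitor of cap-dependent translation (0.99), CHAC1, which degrades glutathione (0.99), SLC6A9, a glycine transporter (0.99), SLC1A4, a neutral amino acid transporter (0.98), and SHMT2, the mitochondrial serine hydroxymethyltransferase (0.98). Those most like SLC25A20 were the zinc finger gene ZNF275 (0.99), CHAC1 (0.99), EIF4EBP1 (0.98), SLC27A3, an acyl-CoA synthetase of the fatty acid transport family (0.98), and HGSNAT, a lysosomal acetyltransferase (0.98). CHAC1 and EIF4EBP1 stood in both lists. The average RU-486 difference was 0.96 ± 0.07 for CHAC1, 0.43 ± 0.06 for EIF4EBP1, 1.09 ± 0.11 for SLC6A9 and 0.34 ± 0.06 for SLC27A3, given as a description since these genes were picked for a pattern that holds this difference.

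**Figure D3:**
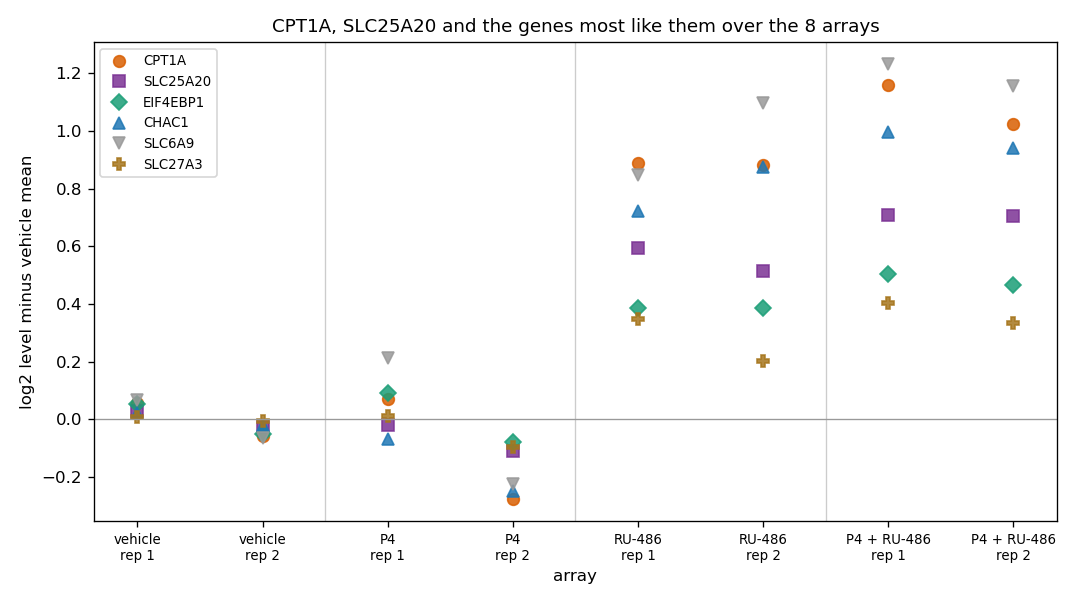
Log2 level on each of the 8 arrays, minus the vehicle mean of the gene, for CPT1A, SLC25A20 and 4 of the genes most like them. All 6 genes are higher on the 4 arrays with RU-486, and progesterone replicate 2 is the lowest array for each of them.

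The rest of fatty acid oxidation was examined through 5 lists that hold 77 genes, of which 71 were measured by a probe set with their symbol alone; the muscle isoform CPT1B was not analysed here. In the average RU-486 comparison 0 of the 71 rose and 0 fell (limma adjusted p under 0.05 among all genes), where 6 of 18417 genes (0.0326%) were called. With so few calls over all genes, 0 of 71 does not set these lists apart. An unadjusted p under 0.05 was found for 17 of the 71, compared with 11% of all genes. Their median difference was 0.07, beside 0.03 over all genes, and 51 of 71 were above 0, beside 62.5% of all genes. The count of 0 changed when progesterone replicate 1 was left out. That fit leaves 1 progesterone array and drops the spread of the least alike replicate pair. Its calls are therefore not read as a result about these genes. Without that array SLC27A3 was at 0.37, ACSL1 at 0.26, MLYCD at 0.27 and ACAA2 at 0.28.

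Genes upstream of the shuttle supply carnitine and acyl-CoA. Of 8 measured genes for carnitine uptake and synthesis and other acyltransferases, the median difference was -0.0025, and ALDH9A1, an aldehyde dehydrogenase of carnitine synthesis, was at 0.20 ± 0.05 (limma adjusted p = 0.395). SLC16A9, a carnitine efflux transporter, was at 0.14, TMLHE, which starts carnitine synthesis, at 0.12 and SLC25A29, a mitochondrial carrier of basic amino acids, at -0.07. Of 15 genes for acyl-CoA synthesis and fatty acid entry, the median was 0.07. SLC27A3 was at 0.34 ± 0.06 (limma adjusted p = 0.253), and the long-chain acyl-CoA synthetase genes ACSL1 and ACSL5 at 0.23 ± 0.06 and 0.15 ± 0.06. ACSL4, which prefers arachidonic acid, was at -0.47 ± 0.18 (limma adjusted p = 0.434), on the other side of 0 from ACSL1. SLC27A5, the bile acid-CoA ligase, was at 0.16.

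Genes that set malonyl-CoA, the inhibitor of CPT1, did not pass either, in a test that 0.0326% of all genes passed. MLYCD, which breaks malonyl-CoA down, was at 0.30 ± 0.05 (limma adjusted p = 0.263), and all 4 arrays with RU-486 lay above the others. ACACA and ACACB, the carboxylases that make it, were at -0.04 and 0.08. Of the AMPK subunits, which restrain those carboxylases, PRKAG2 was at 0.22 ± 0.08, PRKAB1 at 0.12 ± 0.07 and PRKAA1 at -0.34 ± 0.15. The median of these 10 genes was 0.06.

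Downstream, the differences of the mitochondrial beta-oxidation enzymes lay mostly above 0 and none passed the test, which 0.0326% of all genes passed. Of 20 measured genes 18 were above 0, the median difference was 0.11, and for 6 of 20 the arrays with RU-486 lay above all others, beside 4.51% of all genes. ACAA2, the medium-chain thiolase, was at 0.30 ± 0.06 (limma adjusted p = 0.267), HADHB, a subunit of the trifunctional protein, at 0.22 ± 0.06, the enoyl-CoA isomerase ECI2 at 0.20 ± 0.05 and ACADVL, the very long-chain dehydrogenase, at 0.19 ± 0.05. ACADM, the medium-chain dehydrogenase, was at -0.26 ± 0.10 and ACADSB at -0.18.

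PPARA, the fatty acid-sensing receptor known to drive CPT1A and SLC25A20 in liver, differed by -0.04. Of 18 measured receptors, coactivators and targets, 0 passed, beside 0.0326% of all genes, and the median was 0.05. None was without overlap between arrays with and without RU-486, a count near the background of 4.51% of all genes higher and 1.09% lower. PPARD was at 0.13 ± 0.06 (limma adjusted p = 0.453), ESRRA at 0.11, the coactivator gene PPARGC1A at -0.22 ± 0.15 and TXNIP at -0.07. The PPAR targets PDK4, ANGPTL4 and PLIN2 were at 0.14 ± 0.12, 0.16 ± 0.15 and 0.05 ± 0.09. The mean levels of PDK4 and PLIN2 were 5.83 and 5.18, under the olfactory receptor level of 6.22, and that of ANGPTL4 was 6.73. PPARG, RXRG, CYP4A11 and FGF21 of this list also lay under that level. In the other fatty acid and carnitine lists BBOX1, SLC22A16, CD36, FABP3, SLC27A2, SLC27A6, ACSL6 and ACADL lay under it, and they enter the list medians and counts. For genes under it, a small difference does not show whether they responded.

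The amino acid response list, which holds ATF4 and its targets, contained the other 4 genes called for the average RU-486 difference: ASNS, CHAC1, PCK2 and NUPR1. Of its 18 genes 4 rose, 0 fell and all 18 were above 0, with a median of 0.52. Over all genes 0.0326% were called, 62.5% were above 0 and the median was 0.03. With the replicate number as a block 2 of the 18 passed, CHAC1 and ASNS (limma adjusted p = 0.0313 each), and PCK2 did not (limma adjusted p = 0.0556). Without any one of the vehicle, RU-486 or combination arrays 0 or 1 of the 18 passed, and 14 did without progesterone replicate 1. CPT1A and SLC25A20, at 1.04 and 0.66, lay within the range of that list, from 0.0007 to 1.14, and above the highest of the 71 fatty acid and carnitine genes, SLC27A3 at 0.34. The lower end of that range is FGF21, which had a mean level of 6.135, under the olfactory receptor level. FGF21 is also among the 71, so the lists share it. Both lists were chosen with earlier results in view, so the contrast is a description. RNA was measured in bulk, so a change in every cell and a larger change in some cells cannot be told apart.

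**Figure D4:**
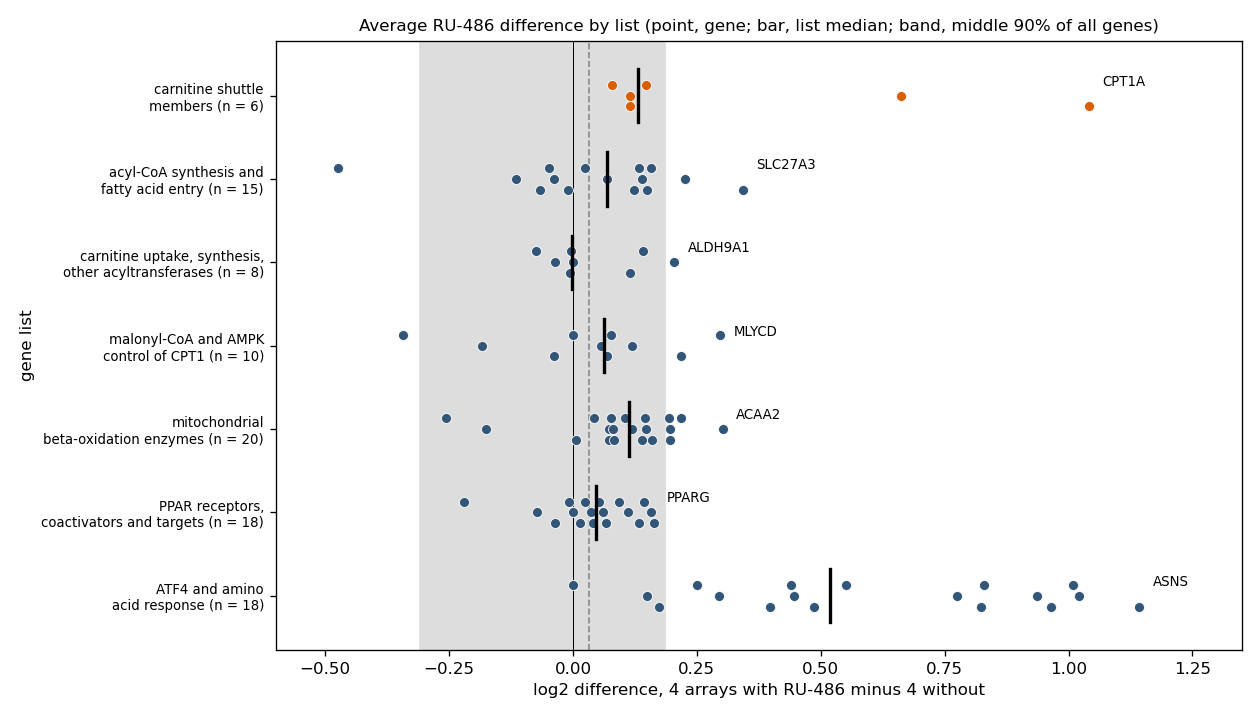
Log2 difference between the 4 arrays with RU-486 and the 4 without, for each gene (points) of the carnitine shuttle and of the 6 lists, with list medians (bars) and the middle 90% of all genes (grey band). CPT1A and SLC25A20 lie to the right of every gene in the 5 fatty acid and carnitine lists and inside the range of the amino acid response list.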

How the data were processed

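Per the submitters' processing notes, the authors used RMA, oligo and limma, with versions and settings not given in the sources used here, and deposited 1 log2 value per probe set and array across 33297 probe sets. RMA equalises the distribution of values between arrays, so a shift shared by most genes is largely removed and differences of dim genes are compressed. Small shared differences remained: for the combination against vehicle 67.5% of genes were above 0, with a median of 0.07. Array medians ran from 6.93 to 7.02. The platform annotation gives a lone gene symbol for 19460 probe sets, which were used, several symbols for 1754, and none for 12083; RefSeq (GRCh38.p14) identifiers matched 19429 of those used. The probe set with the highest mean was kept for 769 genes with several, leaving 18417 genes; the 6 shuttle genes have 1 each. No filter was applied before the fit.

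The fit used lmFit and eBayes of limma 3.58.1 under R 4.3.3 on the 4 group means, with 4 residual degrees of freedom, and adjusted by Benjamini-Hochberg over all genes within a comparison; called means an adjusted p under 0.05. Intervals are unadjusted. The members and lists were chosen with earlier results of these data known. Besides the members, the 4 genes of each list with the smallest p for RU-486, called genes and the 5 genes most correlated with CPT1A and with SLC25A20 are named; ACSL4, ACADM, ACADSB, PPARA, PDK4, ANGPTL4, PLIN2 and both acetyl-CoA carboxylase genes were added after their values were seen. Replicate numbers come from the titles. Deviations of same-numbered arrays correlated at 0.20 to 0.51 over genes in all 6 pairs of groups, so a fit with the number as a block was run as well. Promoter windows are from RefSeq, which held 5 of the 6 members. The pipeline was tested on simulated data.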

Additional observations from a re-analysis of the deposited data

Results flagged for a closer look

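SLC22A5, the carnitine transporter of the plasma membrane, went in opposite directions in the comparisons that share a contrast. Both RU-486 arrays were below both vehicle arrays, while both combination arrays were above both progesterone arrays. In the same way both progesterone arrays were below vehicle and both combination arrays above RU-486. The interaction estimate was 0.33 ± 0.11 for the gene (limma adjusted p = 0.828), which does not pass over all genes, and the same arrangement of arrays was present in 408 genes, or 2.22% of all. With quantile normalization and the other alternatives it stayed between 0.28 and 0.38.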

How the results depend on the processing

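With 2 arrays a group, precision is limited by their number. Omitting an array leaves its group with 1, so call counts from such fits only show how unsteady the calls are. Between the 7 whole-data alternatives and 8 single-array omissions, the average RU-486 difference of each of the 6 members kept its direction, between 0.95 and 1.13 for CPT1A, 0.64 and 0.68 for SLC25A20 and 0.06 and 0.18 for the other 4. The number of genes called for that effect, 6, became 33 with an intensity trend and 12 without dim genes, and ran from 0 to 998 with single arrays left out. The list of 71 genes went from 0 to 4 calls in the same way, and the amino acid response list, with 4, from 0 to 14, with 10 under the trend. From 0 calls, RU-486 against vehicle gave 3 with array weights. The combination against progesterone gave 7 with the trend and 0 to 1090 with single arrays left out. The combination against vehicle gave 7 with array weights, and progesterone against vehicle 0 to 1228 with single arrays left out. With the replicate block the amino acid list had 2 calls and the combination against vehicle 1. The average RU-486 effect had 6, of which 4 were shared with the fit without the block. The block changed no other count named here. Leaving out both progesterone arrays, chosen after seeing the data, gave 0 calls in the 3 comparisons without them. Signs near 0 turned in 9 cases, none of them called. For RU-486 against vehicle, CPT1C was at -0.0060 without RU-486 replicate 1, and CPT2 at -0.022 without vehicle replicate 2 and -0.027 without RU-486 replicate 1. With single arrays left out, the average progesterone difference of CPT1A ran from -0.037 (without progesterone replicate 1) to 0.14, and that of SLC22A5 from -0.013 (without combination replicate 1; -0.0087 without vehicle replicate 2) to 0.033. Against vehicle, progesterone gave -0.28 to 0.070 for CPT1A (the latter without progesterone replicate 2), -0.067 to 0.0030 for CPT1C (the latter without vehicle replicate 1) and 0.011 for CPT2 with quantile normalization. The cause was not tested.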
